A study of Mus musculus with 18 samples.

Results

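A set of 8 genes tied to peptidergic nociceptors was examined in whole dorsal root ganglia (DRG) of mice: Calca, Calcb, Tac1, Adcyap1, Sstr2, Kit, Avpr1a and Gpx3. They were chosen by symbol, so the 8 members stand among 48529 genes with summed read estimates in the series, of which 15774 passed the filter on low counts; all 8 members passed it. RNA was sequenced from ipsilateral lumbar ganglia L2, L3 and L4 of male C57BL/KaLwRijHsd mice aged 5 to 7 weeks, taken on post-surgical day 24. The MM group consisted of 9 mice whose femur had been inoculated with 5TGM1-GFP, a murine myeloma (plasma cell tumour) line with a green fluorescent marker. The SHAM group consisted of 9 mice given vehicle by the same intrafemoral route. The strain, the sex, the age range and the intrafemoral procedure were shared by both groups, and each library was taken as 1 mouse. The model is that of 1 tumour line in 1 inbred host, and the ganglia were sequenced whole, with neurons, glia, vessels and any immune or tumour cells together.

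Peptidergic nociceptors are small and medium sensory neurons that carry noxious signals to the spinal cord and also release peptides from their endings in skin, muscle and bone. Calca and Calcb encode the precursors of the alpha and beta forms of calcitonin gene-related peptide (CGRP), a vasodilator that acts on a receptor built from Calcrl and Ramp1. Tac1 encodes substance P and neurokinin A, and Adcyap1 encodes the peptide PACAP. Sstr2 is an inhibitory receptor for somatostatin, Avpr1a is the vasopressin V1a receptor, and Kit is the receptor tyrosine kinase for Kit ligand (stem cell factor). Gpx3 encodes a secreted glutathione peroxidase. Calca is a classical example of tissue-specific splicing: joining exon 3 to the calcitonin exon gives the hormone precursor of the thyroid, whereas joining it to the CGRP exon gives the neuronal peptide precursor.

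The sequences below are those on which the transcript results turn: splice choices that decide which peptide or receptor form is made, and the stretch in which Calca and Calcb are most alike. They were taken from the GENCODE M21 transcripts, 5′ to 3′. The Calca gene lies on chromosome 7, and capitals mark the bases of the alternative exon that follows exon 3.
Calca, exon 3 joined to the CGRP exon: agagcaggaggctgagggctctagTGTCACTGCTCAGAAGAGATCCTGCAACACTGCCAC
Calca, exon 3 joined to the calcitonin exon: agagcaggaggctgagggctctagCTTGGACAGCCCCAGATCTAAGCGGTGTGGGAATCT

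Kit lies on chromosome 5, and its main forms in these libraries differ by 12 bases at the end of exon 9, in the extracellular part of the receptor next to the membrane. Capitals mark the insert.
Kit, with the insert (ENSMUST00000005815): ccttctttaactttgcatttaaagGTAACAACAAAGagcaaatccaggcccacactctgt
Kit, without the insert (ENSMUST00000144270): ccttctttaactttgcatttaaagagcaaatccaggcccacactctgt

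Tac1 lies on chromosome 6, and its forms differ by exon 4 (45 bases) and exon 6 (54 bases, which encodes neurokinin A). The beta form holds both exons, the gamma form lacks exon 4 and the alpha form lacks exon 6.
Tac1 exon 4: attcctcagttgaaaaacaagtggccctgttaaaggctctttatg
Tac1 exon 6: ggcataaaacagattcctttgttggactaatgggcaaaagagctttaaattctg

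Calca and Calcb both lie on chromosome 7, on opposite strands. In the coding part of the CGRP exon, 151 of 160 aligned columns were identical (94.4%); capitals mark the bases that differ or are absent from the partner.
Calca, coding part of the CGRP exon: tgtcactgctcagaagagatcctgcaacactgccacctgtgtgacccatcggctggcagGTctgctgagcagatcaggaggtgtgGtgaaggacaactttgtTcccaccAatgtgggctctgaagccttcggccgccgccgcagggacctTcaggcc
Calcb, coding part of the CGRP exon: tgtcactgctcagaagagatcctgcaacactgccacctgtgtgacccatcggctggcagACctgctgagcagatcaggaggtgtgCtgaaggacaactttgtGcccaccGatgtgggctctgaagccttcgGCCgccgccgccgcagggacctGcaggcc

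Outside that exon the genes differ more: the whole main transcripts were 65.5% identical. Of 964 stretches of 31 bases in the main Calca transcript, 33 also occurred in a Calcb transcript, and of 932 in Calcb, 32 occurred in Calca. Reads from those stretches are shared out by estimate, so a part of the Calca and Calcb values is uncertain between the genes. The size of that part was not measured, and Calca had many more reads than Calcb.

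The libraries held between 19014161 and 21538262 estimated reads over genes. Of 15774 genes tested with edgeR, 433 rose and 38 fell in MM at an adjusted p under 0.05. Ighg2b (ENSMUSG00000076613), the heavy chain constant region of IgG2b and the measure of tumour RNA used here, was at 4374 CPM in MM9, 2334 CPM in MM8 and 2197 CPM in MM5. It lay between 11.7 and 389.9 CPM in the other 6 MM libraries, against 0.1003 to 16.37 CPM in SHAM libraries; CPM is the read estimate scaled to a common library size, with TMM factors between libraries. MM5, MM8 and MM9 therefore stood apart. The summed CPM of 16 pan-neuronal genes ranged from 10050 to 22200 in MM libraries (median 19130), against 15990 to 21290 in SHAM libraries (median 20180). The lowest sum was in MM5, followed by 13830 in MM9, and the log2 difference of -0.14 did not pass a 2-sided exact permutation test (p = 0.318).

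Compared with other genes in TPM, a unit that takes transcript length into account, the members spanned a wide range. Calca averaged 2180 ± 362 TPM in MM libraries, against 2230 ± 234 TPM in SHAM libraries (SD, n = 9 for all these means). By its mean TPM over all 18 libraries, Calca was 39th of all genes. Tac1 averaged 416 ± 94.5 TPM in MM, against 420 ± 58.4 TPM in SHAM. Next came Calcb with 152 ± 21.6 TPM in MM, against 167 ± 26.2 TPM in SHAM, and Gpx3 with 136 ± 17.5 TPM in MM, against 144 ± 15.0 TPM in SHAM. Adcyap1 averaged 75.4 ± 32.0 TPM in MM, against 67.3 ± 10.6 TPM in SHAM. The receptors were lowest: Kit averaged 28.5 ± 5.05 TPM in MM, against 33.0 ± 2.49 TPM in SHAM, Sstr2 3.58 ± 0.983 TPM in MM, against 4.65 ± 0.746 TPM in SHAM, and Avpr1a 0.860 ± 0.390 TPM in MM, against 0.627 ± 0.210 TPM in SHAM. The order of the means was the same in both groups. Neighbours in this order were apart in every library of both groups, except Calcb and Gpx3: Calcb was the higher of these in 7 of 9 MM and 7 of 9 SHAM libraries. Gpx3 and Adcyap1 overlapped in their ranges over libraries, although Gpx3 was the higher in each single library.

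The main question was whether these genes differed between ganglia of myeloma-bearing and vehicle-treated mice. None of the 8 members passed the threshold in edgeR, with adjusted p between 0.0988 and 0.866, while 2.99% of all genes passed it (2.75% higher and 0.241% lower in MM). Of the members, 2 (Kit and Sstr2) had an unadjusted p under 0.05, and both were lower in MM. The share of all genes under that unadjusted limit was not counted, so this count has no background beside it. With DESeq2, which called 7.61% of all genes, Kit alone passed. No member had groups without overlap, against 0.146% of all genes. In the edgeR fit 4 members had a positive and 4 a negative log2 fold change, where 51.15% of all genes tested were negative. The median of the members was 0.00, beside -0.004 over all genes tested. In whole ganglia, fewer cells of a type and less RNA per cell cannot be told apart, and this holds for each value below.

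**Figure D1:**
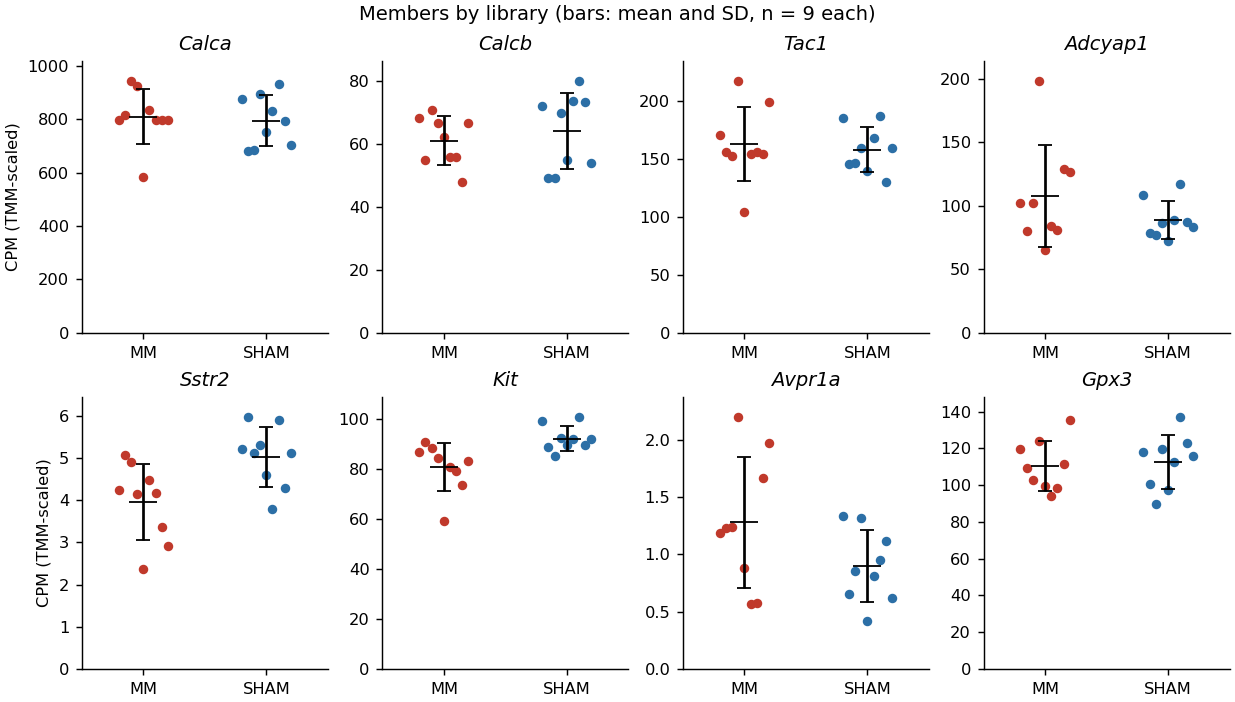
Each point is 1 library, with MM left of SHAM in each panel; the vertical axis is CPM from 0, and bars give the mean and SD (n = 9 each). All 8 members overlap between groups; Kit shows the clearest offset, with 6 of 9 MM libraries below the lowest SHAM library, and 1 MM library stands high in Adcyap1 at 198 CPM.

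Among the peptide genes, Calca (ENSMUSG00000030669) had a lowest, median and highest value of 585, 796 and 942 CPM in MM, against 681, 792 and 933 CPM in SHAM. The MM value of 585 CPM was that of MM5; the other 8 MM libraries lay between 796 and 942 CPM, within or just above the range of SHAM libraries. Its log2 fold change was 0.03 ± 0.08 (SE; adjusted p = 0.866), with a 95% interval of 0.902- to 1.15-fold.

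Calcb (ENSMUSG00000030666), expressed by sensory and enteric neurons, had 48.1, 62.2 and 71.0 CPM (lowest, median, highest) in MM, against 49.1, 70.0 and 80.0 CPM in SHAM. Its SHAM libraries formed a lower run of 4, at 49.1 to 55.1 CPM, and an upper run of 5, at 70.0 to 80.0 CPM, and 6 of 9 MM libraries lay between these runs. Calcb had a log2 fold change of -0.07 ± 0.11 (adjusted p = 0.717).

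Tac1 (ENSMUSG00000061762) had 104, 156 and 217 CPM (lowest, median, highest) in MM, against 130, 159 and 187 CPM in SHAM. MM5 was again the lowest library, MM4 and MM9 were above all SHAM libraries at 217 and 199 CPM, and the other 6 MM libraries lay within the SHAM range. Tac1 had a log2 fold change of 0.04 ± 0.11 (adjusted p = 0.843).

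Adcyap1 (ENSMUSG00000024256), which encodes PACAP and is known to rise in injured sensory neurons, had 65.3, 102 and 198 CPM (lowest, median, highest) in MM, against 72.2, 86.7 and 117 CPM in SHAM. Its coefficient of variation was 37.2% in MM and 16.6% in SHAM. MM4, MM8 and MM9 lay above all SHAM libraries, at 198, 129 and 127 CPM, and MM5 lay below them all. Adcyap1 had a log2 fold change of 0.28 ± 0.17 (adjusted p = 0.342), and the interval ran from 0.945- to 1.55-fold. Leaving out MM4 brought it to 0.12, the lowest of the 18 fits without 1 library, and without MM5, MM8 and MM9 it was 0.28 (adjusted p = 0.692).

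Among the receptors, Sstr2 (ENSMUSG00000047904) had 2.38, 4.17 and 5.07 CPM (lowest, median, highest) in MM, against 3.79, 5.12 and 5.97 CPM in SHAM. All 9 MM libraries lay below the SHAM median and 3 lay below the lowest SHAM library. These values rest on 51 to 103 reads per MM library and 79 to 119 reads per SHAM library. For Sstr2 the log2 fold change was -0.34 ± 0.14 (unadjusted p = 0.0209, adjusted p = 0.153, edgeR), an interval of 0.646- to 0.960-fold. The 3 lowest MM libraries were MM5, MM9 and MM8, those with the most Ighg2b, and without them the log2 fold change was -0.16 (adjusted p = 0.668); the part of tumour RNA in the lower value was not tested.

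Kit (ENSMUSG00000005672) had 59.1, 83.2 and 90.8 CPM (lowest, median, highest) in MM, against 85.4, 92.0 and 101 CPM in SHAM. Every MM library lay below the SHAM median, and 6 of 9 lay below the lowest SHAM library. Kit had a log2 fold change of -0.19 ± 0.06 (unadjusted p = 0.00763, adjusted p = 0.0988, edgeR), and DESeq2 gave -0.20 with adjusted p = 0.0495. Without MM5, MM8 and MM9 edgeR gave -0.12 (adjusted p = 0.332). Kit is also made by mast cells and melanocytes. The 8 mast cell markers summed to 4.29 to 33.4 CPM in MM and 3.71 to 30.3 CPM in SHAM, the 7 melanocyte markers to 17.1 to 32.1 CPM in MM and 19.2 to 31.8 CPM in SHAM. Of these, 5 mast cell and 2 melanocyte markers were high enough to test and none passed the threshold. Cpa3, a mast cell protease and the marker of the list with the lowest p, averaged 2.10 CPM in MM libraries, against 2.72 CPM in SHAM libraries, with 8 of 9 MM libraries below the SHAM median (adjusted p = 0.557). Of the markers under the filter, the mast cell receptor chain Ms4a2 had 31 reads over MM and 55 over SHAM libraries, its partner Fcer1a had 28 over MM and 22 over SHAM, and the tryptase Tpsab1 had 18 over MM and 17 over SHAM. Tyr, the melanocyte enzyme tyrosinase, had 0 reads over MM and 1 over SHAM libraries, while Tyrp1 averaged 16.7 CPM in MM libraries, against 19.2 CPM in SHAM libraries. The part of these cells in the Kit value was not tested.

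Avpr1a (ENSMUSG00000020123) was the least abundant member, at 12 to 45 reads per MM library and 9 to 27 reads per SHAM library. It had 0.567, 1.23 and 2.19 CPM (lowest, median, highest) in MM, against 0.419, 0.854 and 1.33 CPM in SHAM. MM4, MM9 and MM8 were above all SHAM libraries, while MM6 and MM7 were below the SHAM median. For Avpr1a the log2 fold change was 0.51 ± 0.28 (adjusted p = 0.281). Without MM5, MM8 and MM9 it was 0.38 (adjusted p = 0.748). The interval of 0.953- to 2.13-fold was the widest among the members, so a change of that size was not resolved at this depth and spread.

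Gpx3 (ENSMUSG00000018339), the secreted antioxidant enzyme, had 94.2, 109 and 135 CPM (lowest, median, highest) in MM, against 89.6, 116 and 137 CPM in SHAM. All MM libraries lay within the SHAM range. Gpx3 had a log2 fold change of -0.03 ± 0.08 (adjusted p = 0.866), with an interval of 0.871- to 1.11-fold.

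To set the values against the neuronal signal of each library, each member was also set against the summed CPM of the 16 pan-neuronal genes. Sstr2 amounted to 0.0219% of that sum in MM and 0.0256% in SHAM (group means), a log2 difference of -0.23. Its 2-sided exact permutation p was 0.00708, unadjusted, as 1 of 8 members compared; without MM5, MM8 and MM9 the difference was -0.19 (exact p = 0.038). Adcyap1 was 0.36 higher in MM on the log2 scale (exact p = 0.0800); without MM5, MM8 and MM9 the value was 0.18 (exact p = 0.417). Avpr1a was 0.60 higher (exact p = 0.0883), and 0.27 higher without those libraries (exact p = 0.443). For the other 5 members the differences ran from -0.06 for Kit to 0.17 for Calca, with exact p between 0.155 and 0.655. Without those libraries Kit was at -0.15 (exact p = 0.0575), Calca at 0.07 (exact p = 0.532), Tac1 at 0.05 (exact p = 0.702), Calcb at -0.06 (exact p = 0.699) and Gpx3 at -0.09 (exact p = 0.475). In a fit of all genes scaled to the pan-neuronal sum, the median of all genes moved to 0.17, and no member passed the threshold (adjusted p between 0.295 and 0.767); Sstr2 was at -0.23 with adjusted p = 0.309. Calcb and Gpx3 changed sign in that scaling, to 0.10 and 0.15, both below the median of all genes.

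**Figure D2:**
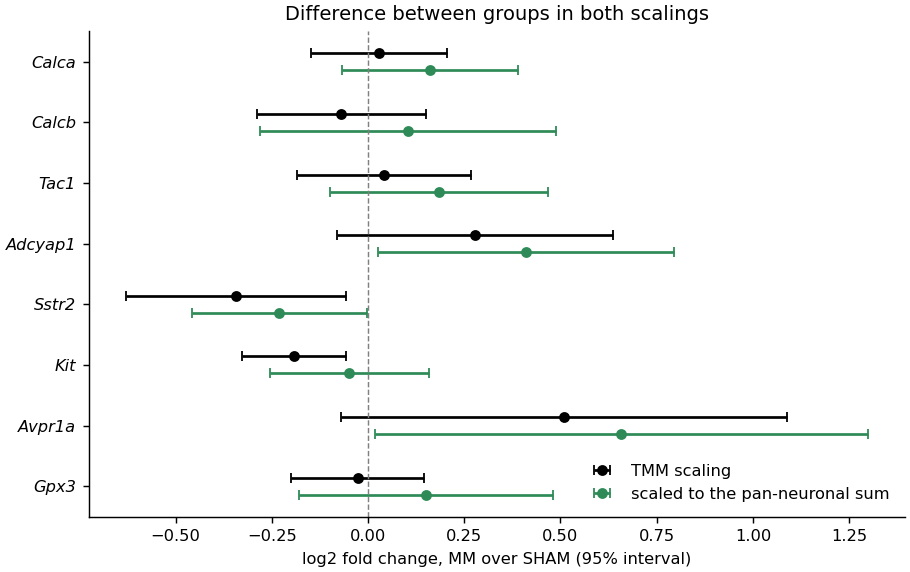
Points give the log2 fold change of MM over SHAM for each member and bars its 95% interval from edgeR, with TMM scaling in black and scaling to the pan-neuronal sum in green. Sstr2 lies left of 0 in both scalings (-0.34 and -0.23), Kit is at -0.19 in the first and -0.05 in the second, and Calcb and Gpx3 cross 0.

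Turning to splicing, Calca reads went almost wholly to CGRP-type transcripts, which made up 99.88% to 99.96% in MM libraries and 99.86% to 99.96% in SHAM libraries. Calcitonin-type transcripts held 3.6 to 15.8 estimated reads per MM library and 5.7 to 16.4 per SHAM library, or 74.9 of 150323.1 Calca reads over all MM libraries and 85.5 of 142688.0 over all SHAM libraries. Their share was 0.0495 ± 0.0188% in MM libraries, against 0.0606 ± 0.0247% in SHAM libraries (SD, n = 9 each), and the groups overlapped over most of their range. The difference of -0.011 percentage points did not pass the 2-sided exact permutation test (p = 0.301 over 48620 assignments). In a single library the share is loosely set: MM3, the highest of MM, had 0.0801% with a 95% Wilson interval of 0.0498% to 0.131%, and SHAM1, the highest of SHAM, had 0.0998% with 0.0598% to 0.158%. Such intervals cover counting error only.

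At the level of transcripts, 35 are annotated for the 8 genes and 17 passed the filter. The main CGRP-type Calca transcript (ENSMUST00000032906) and a minor CGRP-type one (ENSMUST00000206156) held 95.7% and 4.26% of Calca reads in MM, against 95.5% and 4.44% in SHAM. Their log2 fold changes were 0.05 ± 0.08 and -0.01 ± 0.08 (adjusted p = 0.853 and 0.971, edgeR over transcripts).

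Tac1 was made mostly as the beta and gamma forms. Of the reads on the 3 forms, beta took 63.1 ± 1.54% in MM libraries, against 63.5 ± 1.57% in SHAM libraries, and gamma took 35.8 ± 1.38% in MM libraries, against 35.6 ± 1.47% in SHAM libraries. Alpha, which cannot give neurokinin A, took 1.03 ± 0.411% in MM libraries, against 0.880 ± 0.491% in SHAM libraries (SD, n = 9 each). All 3 forms had an adjusted p between 0.779 and 0.882.

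Of the 17 transcripts 1 passed the threshold, against 0.33% of 33664 transcripts tested (0.279% higher and 0.0505% lower in MM). It was the Kit form with the 12-base insert, which fell in MM: the lowest, median and highest values were 26.5, 33.8 and 40.6 CPM in MM, against 34.3, 44.4 and 57.9 CPM in SHAM. Every MM library lay below the SHAM median and 5 lay below the lowest SHAM library. For this form the log2 fold change was -0.45 ± 0.09 (adjusted p = 0.047). The Kit form without the insert had 34.6, 39.5 and 51.3 CPM in MM, against 31.5, 41.6 and 57.4 CPM in SHAM (lowest, median, highest), and its log2 fold change was -0.04 ± 0.11 (adjusted p = 0.909).

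The call of the form with the insert was kept with DESeq2 (-0.45, adjusted p = 0.000662), and in edgeR it depended on single libraries. Without MM5, MM8 and MM9 the log2 fold change was -0.37 with adjusted p = 0.323. Leaving out 1 library at a time gave -0.50 to -0.40 with adjusted p from 0.0316 to 0.102, and the call was lost in 13 of 18 such fits; it held only without MM1, MM2, MM4, MM6 or SHAM3. The forms are told apart by few bases: 38 stretches of 31 bases occur only in the form with the insert, and 65 only in the form without it, which also starts 39 bases earlier. The difference between the changes of the forms was not tested. The share of the form with the insert among both was 44.6 ± 4.61% in MM libraries, against 51.9 ± 7.63% in SHAM libraries (SD, n = 9 each), with ranges of 36.9% to 53.2% in MM and 42.2% to 64.8% in SHAM. This share was chosen after the transcript values were seen, so it is a description without a test.

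**Figure D3:**
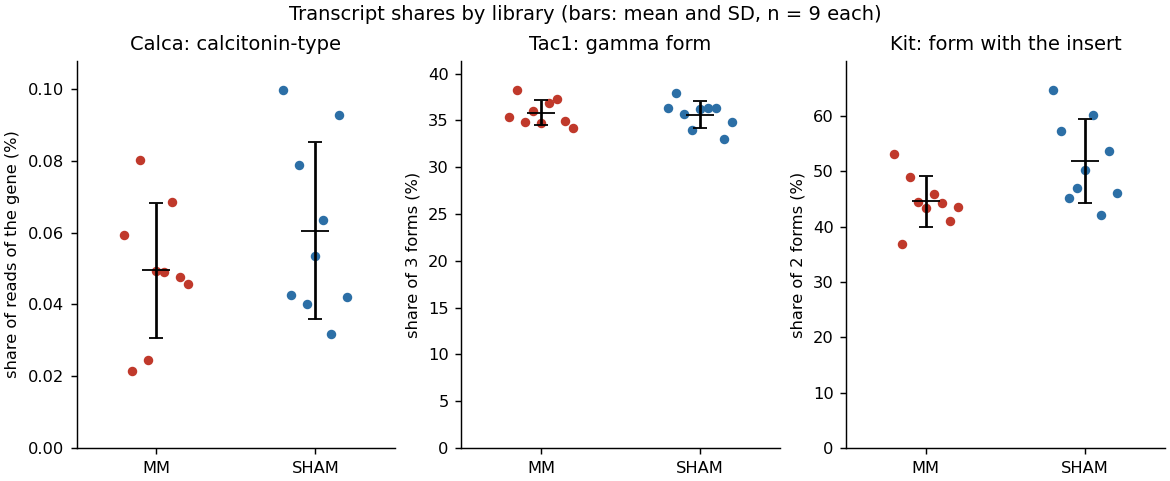
Each point is 1 library, MM left of SHAM; vertical axes start at 0 and give the calcitonin-type share of Calca reads, the gamma share of the 3 Tac1 forms and the share of the Kit form with the insert, in percent, with mean and SD (n = 9 each). The calcitonin-type share stays at or below 0.0998%, the gamma share between 33.0% and 38.3%, and the Kit share averages 44.6% in MM and 51.9% in SHAM with overlapping libraries.

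For the main PACAP transcript of Adcyap1 the log2 fold change was 0.22 ± 0.17, and for a transcript of the same gene with a retained intron it was 1.10 ± 0.56 (adjusted p = 0.598 and 0.396). The retained-intron transcript held 9.40 ± 4.57% of Adcyap1 reads in MM libraries, against 5.63 ± 2.65% in SHAM libraries (SD, n = 9 each). Sstr2, Avpr1a and Gpx3 were each carried by 1 transcript to 97.5% or more on average, so their transcripts repeat the values of the genes. A retained-intron transcript of Kit had 0 to 350 reads per library and a log2 fold change of 0.71 ± 0.81 (adjusted p = 0.757, edgeR over transcripts). It held 9.34 ± 4.98% of Kit reads in MM libraries, against 5.28 ± 4.57% in SHAM libraries (SD, n = 9 each). The share of the Kit form with the insert given above leaves this transcript out.

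Relations between members were then compared from mouse to mouse. Within MM, 26 of 28 pairs of members had a Pearson r of log2 CPM above 0 (median 0.38), and within SHAM 26 of 28 pairs did (median 0.64). Over both groups 56 pairs were tested by exact permutation, and adjusted p was under 0.05 for 5 pairs in MM and 10 in SHAM by Pearson's r; by Spearman's rho the lowest adjusted p was 0.107, so no pair passed. Of the 10 pairs in SHAM, 3 involved Calcb, and r of Sstr2 with the other members lay between -0.25 and 0.29. The same count over other genes was not made. In SHAM, Adcyap1 and Kit had r = 0.92 and rho = 0.78 (exact p = 0.00227 and 0.0172; adjusted p = 0.0391 and 0.107). Without the 2 libraries farthest from the median of Adcyap1, which were its highest, SHAM7 and SHAM1, r was 0.58. Tac1 and Adcyap1 had r = 0.83 in MM (exact p = 0.00961, rho = 0.45) and 0.81 in SHAM (exact p = 0.00801, rho = 0.72); without the 2 farthest libraries r was 0.52 in MM and 0.98 in SHAM. Without MM5, MM8 and MM9 it was 0.95 in MM (n = 6, rho = 0.20, exact p = 0.0667 for r).

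Calcb calls for care, since its SHAM libraries lay in separate runs. The 4 SHAM libraries with the lowest Calcb, namely SHAM2, SHAM3, SHAM5 and SHAM9, were also the 4 with the lowest Calca, at 681 to 751 CPM against 792 to 933 CPM in the others. Since the libraries fell into separate runs, no r over all 9 is given here, and the relation within the runs, of 4 and 5 libraries, was not tested. In MM, Calca and Calcb had r = 0.19 and rho = 0.50 (exact p = 0.652 and 0.178). The MM value of r was 0.32 without the 2 farthest libraries and 0.62 without MM5, MM8 and MM9 (n = 6, exact p = 0.251). The difference between the groups in this correlation was not tested.

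In MM the pattern rested in part on a few libraries. Calca and Kit had r = 0.86 in MM (rho = 0.73; exact p = 0.0178 and 0.0311; adjusted p = 0.0586 and 0.125), which dropped to 0.22 without the 2 farthest libraries and to 0.25 without MM5, MM8 and MM9. Sstr2 and Kit had r = 0.83 in MM (rho = 0.77; exact p = 0.00806 and 0.0214; adjusted p = 0.0391 and 0.109), 0.88 without the 2 farthest libraries and 0.69 without MM5, MM8 and MM9 (n = 6, exact p = 0.139); in SHAM their r was 0.28 (exact p = 0.471). Avpr1a and Gpx3 had r = 0.86 in MM (rho = 0.87; exact p = 0.00305 and 0.00451; adjusted p = 0.0391 and 0.107), and r was 0.79 without the 2 farthest libraries and 0.87 without MM5, MM8 and MM9 (n = 6, exact p = 0.0306). Over those 6 MM libraries, 24 of 28 pairs had r above 0, with a median of 0.52.

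**Figure D4:**
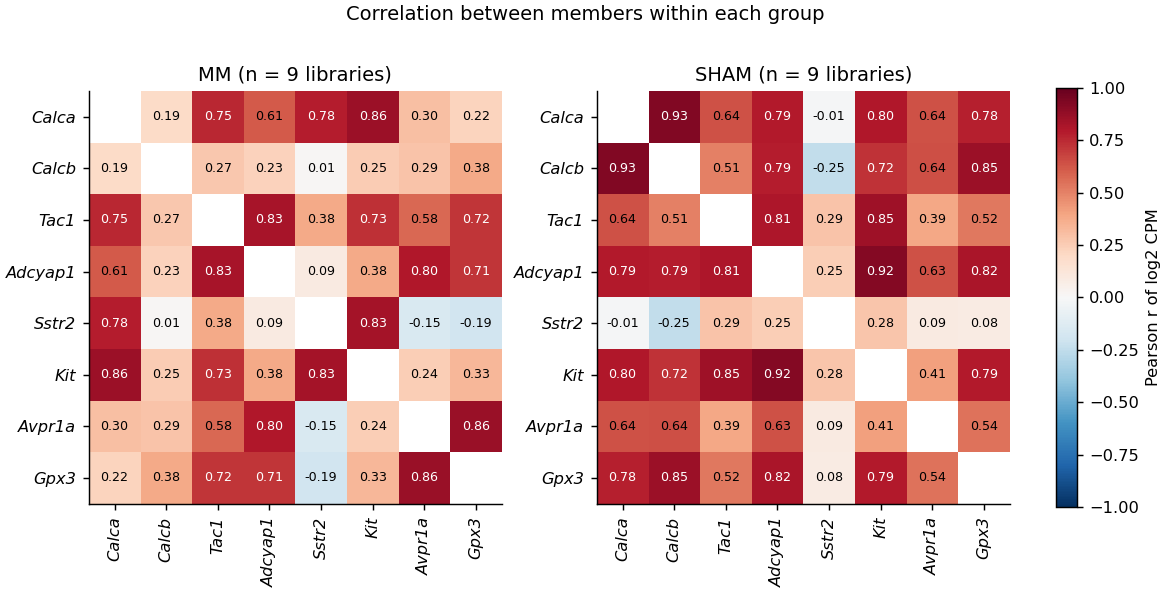
Colour and number give Pearson's r of log2 CPM for each pair of members over 9 libraries, MM in the left panel and SHAM in the right. Most pairs are positive in both; Sstr2 lies between -0.25 and 0.29 with all others in SHAM, and r of Calca with Calcb is 0.19 in MM, where the value shown for SHAM spans separate runs of Calcb.

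Over all 18 libraries, with each group's mean subtracted, the 3 genes most like each member were looked up among 9914 genes with a mean of at least 10 CPM; the measure was Pearson's r of log2 CPM, given as a description. Tac1 was nearest to Trpv1, the heat- and capsaicin-gated channel, with r = 0.94, followed by Fabp5 (0.86) and Sfrp1 (0.85). Adcyap1 was nearest to Vgf, a precursor of secreted peptides (r = 0.90), then Gap43, a growth cone protein (0.90), and Chl1 (0.86). MM4 was the highest MM library for all 3 of these, as it was for Adcyap1, with Vgf at 191 CPM. Calcb was nearest to Prkcd, a protein kinase C (r = 0.94), then Cd24a (0.92) and Tmem45b (0.91). The SHAM part of these r spans the separate runs of Calcb. Within MM alone r was 0.96 with Prkcd, 0.83 with Cd24a and 0.92 with Tmem45b.

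Calca was nearest to Itfg1 (r = 0.91), Vps4a (0.89) and Map2k1 (0.87). The genes nearest to Sstr2 were Rab5b (0.92), Oscp1 (0.92) and Gabbr1, a subunit of the metabotropic GABA receptor (0.92). Among the genes most like Kit were Fgf12 (0.91) and Rragb (0.91). Avpr1a was nearest to Camkk2 (0.79), Ythdf2 (0.78) and Basp1 (0.76), and Gpx3 to St6galnac5 (0.81), Camkk2 (0.81) and Tmem100 (0.80). None of these genes passed the threshold between MM and SHAM.

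**Figure D5:**
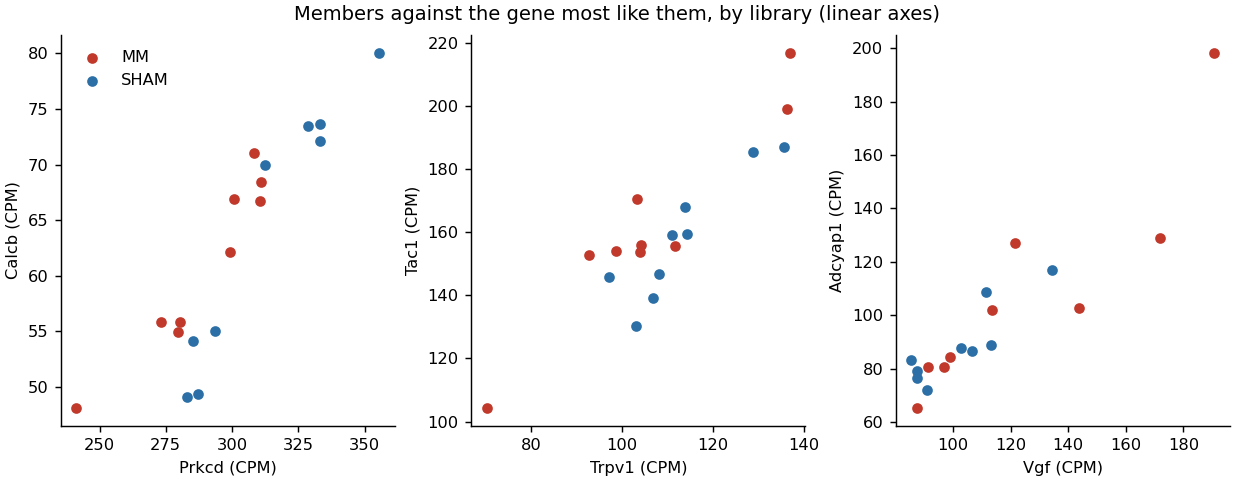
Each point is 1 library, red for MM and blue for SHAM; axes are CPM on linear scales that do not start at 0, with Calcb against Prkcd, Tac1 against Trpv1 and Adcyap1 against Vgf. Libraries of both groups lie along the same rising band, with MM4 at the upper end for Tac1 (217 CPM) and Adcyap1 (198 CPM). For Calcb the SHAM libraries lie in separate runs.

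The ligands, receptors and enzymes around the members were then counted from 10 lists. Of 82 genes, 64 were tested and none passed the threshold in edgeR. An unadjusted p under 0.05 was found for 6, again with no share of all genes beside it. Beside -0.004 over all genes, the 64 tested genes had a median log2 fold change of -0.025. DESeq2 called 1 of them, Ptbp1, a splicing repressor that was at 62.1 ± 39.1 CPM in MM libraries, against 32.9 ± 7.88 CPM in SHAM libraries (SD; n = 9 each; log2 fold change 0.92 ± 0.29 and adjusted p = 0.0833 in edgeR, adjusted p = 0.0245 in DESeq2).

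For CGRP, 6 of 9 receptor and relative genes were tested. All 6 had a positive log2 fold change (median 0.31) without passing, while 51.15% of all genes tested were negative. Calcrl, the CGRP receptor's ligand-binding subunit, was at 11.9 ± 4.17 CPM in MM libraries, against 8.96 ± 1.97 CPM in SHAM libraries (log2 fold change 0.41; adjusted p = 0.200). Adm, adrenomedullin, was at 1.93 ± 1.42 CPM in MM libraries, against 1.15 ± 0.519 CPM in SHAM libraries (0.74; adjusted p = 0.238). Adm2, a related peptide that acts on receptors built from Calcrl, is named here after its values were seen; it was under the filter, with 247 reads over MM libraries and 14 over SHAM libraries. MM5, MM9 and MM8 held most of them, at 75, 64 and 54 reads, the other MM libraries had 0 to 17 and SHAM libraries 0 to 5. In a fit without the filter Adm2 rose (log2 fold change 3.98 ± 0.79; adjusted p = 0.0249); its largest counts stood in the libraries with the most Ighg2b, and the part of tumour RNA was not tested.

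The receptors for the other peptides were scarce. Of the tachykinin relatives, Tacr3 alone was tested, at 1.19 ± 0.418 CPM in MM libraries, against 1.19 ± 0.263 CPM in SHAM libraries, while the substance P receptor Tacr1 had 73 reads in all MM and 36 in all SHAM libraries. The PACAP receptor Adcyap1r1 was at 5.56 ± 1.96 CPM in MM libraries, against 5.01 ± 1.20 CPM in SHAM libraries (adjusted p = 0.644). Sst, the ligand of Sstr2 and itself a marker of itch neurons, was at 7.59 ± 2.09 CPM in MM libraries, against 9.41 ± 1.83 CPM in SHAM libraries (log2 fold change -0.31 ± 0.16; adjusted p = 0.268), and 8 of 9 MM libraries lay below the SHAM median. The oxytocin receptor Oxtr was at 2.19 CPM in MM libraries, against 2.38 CPM in SHAM libraries on average (adjusted p = 0.754). Vasopressin itself (Avp) had 9 reads over all MM and 4 over all SHAM libraries.

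Of 5 genes around Kit none passed; the related receptor Csf1r, a marker of macrophages, was at 23.9 ± 13.1 CPM in MM libraries, against 15.9 ± 5.64 CPM in SHAM libraries (adjusted p = 0.204), and Flt3 was at 20.6 ± 4.73 CPM in MM libraries, against 23.2 ± 2.63 CPM in SHAM libraries (adjusted p = 0.425). Of 5 tested relatives of Gpx3, Gpx1 was at 118 ± 15.7 CPM in MM libraries, against 107 ± 12.8 CPM in SHAM libraries (adjusted p = 0.314), and Gpx7 had a log2 fold change of 0.22 (adjusted p = 0.465). Among 19 genes of peptide processing and dense-core vesicles 16 had a negative log2 fold change (median -0.13), and none passed. Of all genes tested 51.15% were negative, and of the 16 pan-neuronal genes 15 were (median -0.14). Ptprn2, a dense-core vesicle protein, had a log2 fold change of -0.18 (adjusted p = 0.204). Scg3, a granin-binding sorting protein, was at 609 ± 67.8 CPM in MM libraries, against 679 ± 58.6 CPM in SHAM libraries (adjusted p = 0.191). The peptide-degrading enzymes (8 tested, median -0.01) and the regulators of Calca splicing (13 tested, median -0.10) held no gene past the threshold in edgeR. Nln, a peptidase that cuts neurotensin, had a log2 fold change of 0.18 (adjusted p = 0.153), and Celf4, an RNA-binding protein of neurons, of -0.18 (adjusted p = 0.239).

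Markers of the cells around the members gave the setting. A list of other genes of peptidergic nociceptors, not all confined to those neurons, had 15 tested genes. Of these, 14 had a negative log2 fold change (median -0.14), beside 51.15% of all genes tested. Scn11a, the sodium channel Nav1.9, fell: it was at 464 ± 59.6 CPM in MM libraries, against 563 ± 42.8 CPM in SHAM libraries (log2 fold change -0.28 ± 0.07, adjusted p = 0.047). Scn10a, the related channel Nav1.8, was at 910 ± 115 CPM in MM libraries, against 1094 ± 81.0 CPM in SHAM libraries (-0.27 ± 0.07, adjusted p = 0.0535 in edgeR and 0.00758 in DESeq2). DESeq2, which called 7.61% of all genes, called 3 genes of this list, all lower in MM: Runx1, Scn10a and Scn11a. Of 13 non-peptidergic and itch neuron genes Mrgprd fell, to 113.4 ± 14.01 CPM in MM against 136.2 ± 8.835 CPM in SHAM (-0.26 ± 0.07, adjusted p = 0.0427 in edgeR). In that list DESeq2 called 3 genes, all lower in MM: Mrgprd, Gfra2 and Plxnc1. Scaled to the pan-neuronal sum, Scn11a was at -0.10 and Mrgprd at -0.10 (adjusted p = 0.660 and 0.609). The pan-neuronal genes (median -0.14, 15 of 16 negative) and the A-fibre genes (median -0.22, 9 of 10 negative) held no gene past the threshold. Of 12 tested B, plasma and myeloma cell genes 8 rose (Igkc, Irf4, Pou2af1, Ighg2b, Prdm1, Jchain, Slamf7 and Sdc1) and Cd79a fell, and their sum reached 138 to 8483 CPM in MM, against 92.3 to 153 CPM in SHAM.

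The calls of Scn11a and Mrgprd depended on single libraries. Scn11a kept its call in 5 and Mrgprd in 7 of 18 fits that left out 1 library, with adjusted p up to 0.0911 and 0.0887. Without MM5, MM8 and MM9 they were at -0.23 and -0.16 (adjusted p = 0.109 and 0.190). Of the named B, plasma and myeloma cell genes, Cd79a kept its call in 3 and Sdc1 in 6 of the 18 edgeR fits (adjusted p up to 0.101 and 0.111). Slamf7 kept it in 16, and the other named genes of that list in all 18. Without MM5, MM8 and MM9, Cd79a was at -1.01, Sdc1 at 0.39, Slamf7 at 1.38 and Jchain at 1.85 (adjusted p = 0.116, 0.481, 0.207 and 0.0605, edgeR). The lists of satellite glia, Schwann cells, vascular smooth muscle, adipocytes, mast cells, melanocytes and haematopoietic progenitors held no gene past the threshold in edgeR, and DESeq2 called Egr2 and Lyl1 among them.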

How the data were processed

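Total RNA was sequenced on DNBSEQ instruments, per the labels' protocols. Per the submitters' processing notes, the authors used Salmon 1.5.2, DESeq2 (version not given in the sources used here) and the GRCm39 build. The deposited quantification files hold an estimated count per transcript, the TPM value and the effective length, which the authors made for each library. The authors also deposited 1 table with a normalized signal for each gene in each sample. Estimated counts and TPM were summed per gene, and counts were rounded. Names and exon structures came from GENCODE M21 on GRCm38, matched by Ensembl number without version, so no genome positions are given; all 35 member transcripts had the same length there. Of 137562 transcripts 3620 had no gene in that annotation, with 0.85% to 1.34% of reads per library.

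R 4.3.3 with edgeR 4.0.16 was used for the filter (filterByExpr), the TMM factors and a quasi-likelihood test with robust fitting, whose model held the group alone; transcripts were tested likewise. A gene passed at a Benjamini-Hochberg adjusted p under 0.05, and the common biological coefficient of variation was 0.258. Log2 CPM used a prior count of 2. Exact permutation tests between groups covered all assignments of 18 libraries to 9 and 9 (smallest p 4.11e-05). Where libraries were left out, they covered the assignments of those that remained. For correlations the permutation was over the libraries within a group. The test code was tested on simulated data. DESeq2 1.42.0, other scalings, a table fit with limma 3.58.1 and fits without libraries were alternatives. Other steps used scipy 1.17.1, pandas 2.3.3, numpy 2.4.6 and, for plots, matplotlib 3.10.9 under Python 3.11.15. The depth of 19014161 to 21538262 reads limits the precision of low genes. The intervals of fold changes come from the edgeR fit over mice and include their spread, whereas the Wilson intervals of shares cover counting error only. No libraries of a group agreed within sampling noise (lowest chi-square per degree of freedom 4.81). Same-numbered libraries were not paired, since 2 of 9 number pairs had a correlation over 0.1.

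The members and lists were chosen with earlier results of these data known. Named genes are the members, each list's genes past the threshold and otherwise those with the 2 lowest p, the 3 genes most like each member, and Ighg2b. Adm2, Tacr1, Avp, Ms4a2, Fcer1a, Tpsab1 and Tyr, and the genes that DESeq2 alone called, were named after their values were seen. Of the list genes, Tafa1 had no match. Some genes that the naming rule picks are not reported here. The labels name each mouse's group and give no batch.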

Additional observations from a re-analysis of the deposited data

Results flagged for a closer look

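Over 26 groups of 9 libraries (8 members, the calcitonin-type share and 4 transcript shares, in MM and in SHAM), 2 held a library far from the others, where chance gives about 1 in 20. For Calca in MM, MM5 was at 584.9 CPM and the nearest MM library at 795.6 CPM, a gap of 0.589 of the group's range. For Adcyap1 in MM, MM4 was at 198.2 CPM and the nearest MM library at 129.1 CPM, a gap of 0.52 of the range. MM5 also had the lowest pan-neuronal sum, at 10050 CPM, and an Ighg2b level of 2197 CPM, whereas MM4 had a pan-neuronal sum of 20130 CPM and Ighg2b at 390 CPM; the part of these in either value was not tested.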

How the results depend on the processing

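The count of 471 genes past the threshold depended on the processing. It was 1201 with DESeq2, 251 with limma on the authors' table, 202 with libraries scaled to the pan-neuronal sum, 60 without MM5, MM8 and MM9 and 35 without SHAM7 and SHAM8. The share of higher calls was 78.7% with DESeq2, 77.7% with limma and 97.0% in the pan-neuronal scaling, beside 91.9% in the edgeR fit. With the replicate number as a block the count was 8 (7 rose, 1 fell); same-numbered libraries had correlations from -0.32 to 0.26, and 2 of 9 MM libraries matched their own number best. Leaving out 1 library gave 84 to 1014. The count rose to 760 without MM1, 1014 without MM2 and 732 without SHAM6. It was 526 to 630 without MM3, MM4, MM6 or MM7, and fell to between 84 and 287 without any other library. In the pathway lists the count of 0 became 1 with DESeq2 (Ptbp1), 1 without the filter (Adm2), and 0 to 1 without 1 library.

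Of the members, no gene passed in any edgeR or limma fit; Kit passed with DESeq2 (-0.20, adjusted p = 0.0495). Small values changed sign: Calcb to 0.10 in the pan-neuronal scaling and 0.0113 without SHAM7 and SHAM8, Gpx3 to 0.15 and 0.03 in the same fits. Without MM5, MM8 and MM9, Calcb became -0.0645 and Gpx3 -0.0918 per pan-neuronal sum, and the minor CGRP-type Calca transcript 0.0829. The Kit form with the insert kept its call with DESeq2 (-0.45, adjusted p = 0.000662) and missed the threshold without the filter (-0.46, adjusted p = 0.0627), with the replicate block (-0.45, adjusted p = 0.311) and without MM5, MM8 and MM9 (-0.37, adjusted p = 0.323). The cause of these changes was not tested.

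Without 1 library at a time the log2 values ranged from -0.0019 to 0.0772 for Calca, -0.02 to 0.105 for Tac1, -0.0681 to 0.0119 for Gpx3, -0.0498 to 0.0318 for the minor CGRP-type Calca transcript, -0.092 to 0.0006 for the main Calcb transcript, -0.0048 to 0.113 for the Tac1 beta form, -0.498 to -0.403 for the Kit form with the insert, -0.101 to 0.0259 for that without it and -0.05 to 0.0324 for the main Gpx3 transcript. Per pan-neuronal sum they ranged from -0.0198 to 0.15 for Calcb, 0.265 to 0.437 for Adcyap1 (exact p down to 0.0343) and 0.457 to 0.741 for Avpr1a (exact p down to 0.034). For Sstr2 per pan-neuronal sum the exact p stayed between 0.00181 and 0.0173 in all 18 such comparisons, with the same sign. In all, 764 values were classed as the same. Another 16 kept their sign but no longer passed 0.05, and 5 kept their sign and newly passed it. The sign reversed in 27, and 23 were counts of genes that moved.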
